A study of Rattus norvegicus with 15 samples.

Results

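The genes described here encode the enzymes of glycolysis and of glycogen metabolism, together with the enzymes that set the level of fructose bisphosphate signals and the pyruvate dehydrogenase complex with its kinases and phosphatase. They were chosen by name, as a list of 40 genes, and 33 of the 40 were among the 11574 genes of the count table. Aldoc, Fbp2, Gapdh, Gpd1, Pfkfb4, Phkg1 and Pygl were not analysed here. The cells were H9c2, a myoblast line derived from rat heart, and messenger RNA was sequenced from 15 cultures in 5 groups of 3. Every sample title names H9c2, whereas the cell line field gives other names to the 12 later cultures, and all 15 were treated as H9c2. T0 cultures were taken 24 h after seeding, in medium with 10% fetal bovine serum and no retinoic acid (RA). T7-RA and T14-RA cultures were kept for 7 and 14 days with serum lowered to 1% and no RA. T7+RA and T14+RA cultures were kept for the same times in 1% serum with all-trans RA, a ligand of nuclear receptors made from vitamin A, added daily at 1 µM. RA was dissolved in DMSO, and whether the cultures without RA received DMSO was not given in the sources used here. T0 differed from all later cultures in serum as well as in time, so that both cannot be told apart in any comparison with T0.

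Glycolysis splits glucose into pyruvate, and many of its steps are carried out by enzymes that exist in several isoforms, each from its own gene. Striated muscle is known for its own set of isoforms, among them hexokinase 2, muscle phosphofructokinase, phosphoglycerate mutase 2, enolase 3 and the muscle glycogen phosphorylase, whereas dividing cells use forms that most tissues share. Glycogen, the store of glucose in muscle, is started on glycogenin, built by glycogen synthase and branching enzyme, and broken down by phosphorylase. Pyruvate dehydrogenase carries pyruvate into mitochondrial oxidation, and its kinases switch it off.

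The counts per library ranged from 508397 to 1030820, with a median of 666344. The 33 genes had a median of 861 counts summed over the 15 libraries, against 358 for all genes. Of the 33 genes, 23 had at least 10 counts in every library and 5 had a count of 3 or less in some library. Levels are given as CPM, counts scaled to library size and by the TMM method. The label of a myoblast line was checked with marker genes. The summed CPM of the 9 myoblast and myotube markers found, of 10 listed, was 302 to 356 at T0. Without RA it reached 3208 to 3711 at T7 and 11739 to 12428 at T14, and with RA 1813 to 2110 at T7 and 5404 to 6180 at T14. Myf5 was the marker not found, and Myod1, Myog, Des, Ckm and Myh3 were among those found. The 5 markers of dividing cells summed to 1390 to 1620 CPM at T0. Without RA they summed to 1012 to 1086 at T7 and 506 to 563 at T14, and with RA to 902 to 953 at T7 and 322 to 448 at T14. Of 7 cardiomyocyte markers only Gata4 was found, at 6.90 to 21.6 CPM over all libraries, and Myh6, Myl7, Nppa, Nppb, Nkx2-5 and Tnni3 were not in the table. The fibroblast markers Dcn and Lum, 2 of 4 listed, had no count in any T0 library and summed to 72.6 to 86.5 CPM in T14-RA and 103 to 159 CPM in T14+RA. Tek, the endothelial marker found of 4, stayed at or under 6.29 CPM, and none of 4 macrophage markers was found. The sum of the myoblast and myotube markers therefore moved with both time and RA, in the same libraries as the results that follow. A few abundant markers can set such a sum, and single markers are not given here. Their part in those results was not tested, and in such bulk samples fewer cells of a type and less RNA per cell cannot be told apart.

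The upstream sequences of 5 of the genes are shown because the results on time and RA turn on them. They are the 250 bases before the annotated start of each gene, from the RefSeq promoter sequences of build GRCr8, in which 31 of the 33 genes had an entry. The counts were made on another build, Rnor_6.0, and positions from the 2 were not mixed. Capitals mark the E-box CANNTG, where muscle regulatory factors bind, the letters CTAAAAATA or CTATTTTTA of a MEF2 site, and TATAAA. These motifs were chosen after the sequences had been seen. Pgam2 lies at chr14:84897875-84898124 on the minus strand, Eno3 at chr10:55868936-55869185 on the plus strand, Pygm at chr1:213119555-213119804 on the plus strand, Hk2 at chr4:116841276-116841525 on the minus strand and Pdk3 at chrX:62547372-62547621 on the minus strand.
Pgam2: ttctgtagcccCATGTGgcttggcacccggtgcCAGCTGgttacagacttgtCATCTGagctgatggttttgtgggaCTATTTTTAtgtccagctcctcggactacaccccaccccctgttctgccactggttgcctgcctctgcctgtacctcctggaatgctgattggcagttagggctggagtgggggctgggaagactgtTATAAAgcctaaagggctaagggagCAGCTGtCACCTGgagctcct
Eno3: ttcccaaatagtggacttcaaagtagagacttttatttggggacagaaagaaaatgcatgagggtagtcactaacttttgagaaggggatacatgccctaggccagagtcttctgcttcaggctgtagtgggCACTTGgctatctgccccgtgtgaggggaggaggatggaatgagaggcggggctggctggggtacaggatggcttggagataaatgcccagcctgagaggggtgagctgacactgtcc
Pygm: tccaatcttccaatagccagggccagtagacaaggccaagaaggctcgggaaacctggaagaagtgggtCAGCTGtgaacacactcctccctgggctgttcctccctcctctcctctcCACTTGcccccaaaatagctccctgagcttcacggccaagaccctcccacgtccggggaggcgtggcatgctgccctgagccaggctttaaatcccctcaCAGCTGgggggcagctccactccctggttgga
Hk2: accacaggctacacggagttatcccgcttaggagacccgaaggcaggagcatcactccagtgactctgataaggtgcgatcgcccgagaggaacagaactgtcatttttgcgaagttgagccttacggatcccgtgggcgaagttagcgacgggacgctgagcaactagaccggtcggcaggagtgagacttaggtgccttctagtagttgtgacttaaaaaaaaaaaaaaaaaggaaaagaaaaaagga
Pdk3: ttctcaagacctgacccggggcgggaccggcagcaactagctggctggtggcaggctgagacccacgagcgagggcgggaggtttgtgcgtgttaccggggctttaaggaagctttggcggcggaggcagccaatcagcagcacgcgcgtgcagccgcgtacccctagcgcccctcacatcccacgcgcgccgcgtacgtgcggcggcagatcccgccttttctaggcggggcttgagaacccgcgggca
A gene was counted if any of its entries held the letters, and 4 of the 31 genes had 2 or more entries. The shares of all promoters count single entries, so the 2 figures are not in the same unit. Searched on both strands, the E-box letters occurred in 22 of the 31 genes and in 65.5% of all 33469 promoters of the same length. The MEF2 letters occurred in Pgam2 alone of the 31, and in 0.792% of all promoters. TATAAA, searched on the gene's strand, also occurred in Pgam2 alone, and in 8.06% of all promoters. AGGTCA, the half-site of retinoic acid receptors, was in 2 of the 31, Aldoa and Pfkfb2, and in 4707 of all 33469 promoters, so that none of the 5 windows printed held it. ACGTG, the core of the hypoxia factor site, was in 14 of the 31 and in 16.6% of all promoters. A match describes letters only, and motifs were not tested against the RNA.

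Which of these genes changed with time in culture, and which with RA, was asked with edgeR's quasi-likelihood test over all genes. The model had a T7, a T14 and an RA term, fitted on all 15 cultures, and took the change with RA as equal at the 2 days. The RA term averages that change over both days. Under that assumption T7 and T14 give the change from T0 without RA, but the RA cultures enter both terms. Where the change with RA differed between the days, both terms need not match the levels without RA. Pdk3, for example, had a T7 term of -0.09 on the log2 scale, with means of 18.0 CPM at T0 and 25.4 in T7-RA. Genes were called at a p adjusted over all 11574 genes under 0.001. The T14 term called 17 of the 33 genes, 15 higher and 2 lower, where 17.3% of all genes were called, 8.47% higher and 8.85% lower. The median log2 change of the 33 genes was 0.78 at T14, where that of all genes was 0.05. With the 2 genes at or under 3 counts in every T0 library set to their lower bounds, the median stayed at 0.78. The T7 term called 4 genes, 3 higher and 1 lower, where 8.73% of all genes were called, 4.29% higher and 4.44% lower. From T7 to T14, averaged over the cultures without and with RA, 10 genes rose and none fell, where 6.89% of all genes were called, 3.65% higher and 3.23% lower. Of the 10, Hk2 and Pdk3 overlapped between T7-RA and T14-RA. The RA term called 5 genes, 4 higher and 1 lower, where 6.39% of all genes were called, 3.33% higher and 3.07% lower. In all, 18 of the 33 genes passed in the T7, T14 or RA term, where 21.2% of all genes did, and 4 passed in both T14 and RA, where 3.21% of all genes did.

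The 8 muscle-type isoforms in the table were Hk2, Pfkm, Aldoa, Pgam2, Eno3, Pygm, Gys1 and Phka1. Of these, 7 rose at T14, all but Phka1, a regulatory subunit of phosphorylase kinase, with a log2 change of 0.31, where 8.47% of all genes were called higher at T14 and 8.85% lower. The 7 counterparts were Hk1, Pfkl, Pfkp, Pgam1, Eno1, Eno2 and Pygb. Of these, Eno1 fell at T14 and the other 6 were not called. Aldoa, Gys1 and Phka1 had no counterpart among the 7, so their changes say nothing of a switch between isoforms. Both lists were set by the known tissue distribution of the isoforms, with earlier results of these data in view.

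**Figure D1:**
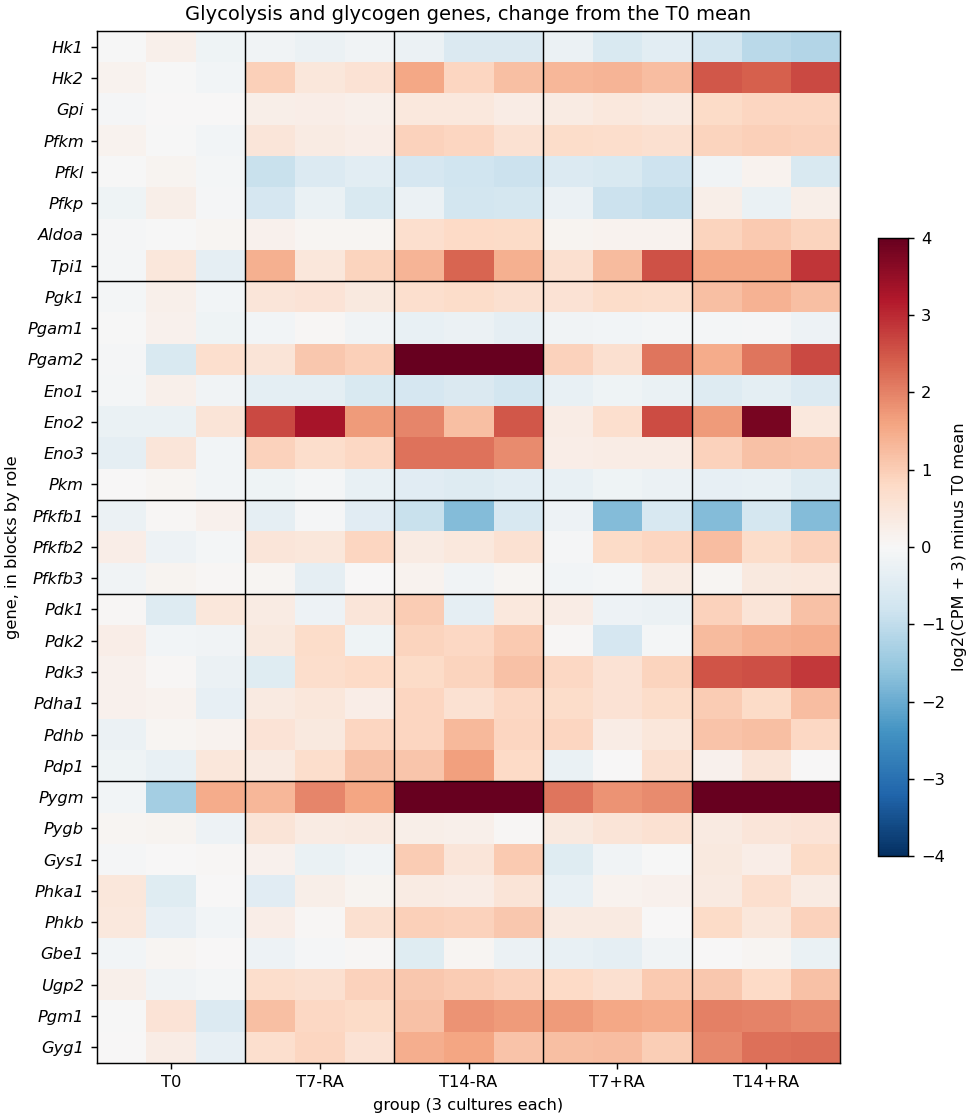
Level of each of the 33 genes in each of the 15 libraries, as log2(CPM + 3) minus the mean of the 3 T0 libraries (colour), with genes in rows grouped by role and libraries in columns grouped by treatment. Colours end at 4 and -4, which Pgam2 in T14-RA and Pygm in T14-RA and T14+RA pass, and Hk2 and Pdk3 are darkest in T14+RA.

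Hexokinase traps glucose in the cell by phosphorylating it, and its form Hk2 rose with time and with RA. Hk2 (ENSRNOG00000006116, band 4q34), the form of insulin-responsive tissues, measured 80.0, 71.3 and 67.1 CPM at T0, 142, 101 and 109 in T7-RA, and 219, 133 and 171 in T14-RA. With RA it measured 187, 192 and 175 CPM at T7 and 416, 391 and 464 at T14. The RA cultures lay above the cultures without RA at each day, with no overlap. The T14 term of Hk2 was 1.43 ± 0.179 on the log2 scale (SE; adjusted p = 7.04e-09) and its RA term 0.99 ± 0.11 (adjusted p = 5.78e-10), a 1.98-fold rise. Hk1, the form of most tissues, measured 214, 246 and 189 CPM at T0 and 128, 101 and 94.3 in T14+RA, the lowest of the groups. Its T14 term of -0.52 ± 0.136 and its RA term of -0.37 ± 0.105 did not pass the threshold (adjusted p = 0.00164 and 0.00912), although the T14 term did without T14-RA replicate 1 (-0.64, adjusted p = 4.26e-04).

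The next steps turn the sugar into 2 triose phosphates. Gpi, which converts glucose phosphate into fructose phosphate, rose at T14 by 0.47 ± 0.112 on the log2 scale (adjusted p = 5.07e-04), from 272, 289 and 289 CPM at T0 to 384, 379 and 352 in T14-RA. That call was lost, at adjusted p up to 0.00495, without T0 replicate 1 or 3, T14-RA replicate 1 or 2, or T7+RA replicate 1. Phosphofructokinase commits the sugar to glycolysis, and Pfkm, its muscle form, rose from 281, 257 and 237 CPM at T0 to 494, 469 and 398 in T14-RA. The T14 term of Pfkm was 0.76 ± 0.114 (adjusted p = 2.02e-07). Pfkl and Pfkp, the liver and platelet forms, measured 85.2 ± 6.21 and 46.1 ± 7.43 CPM at T0 (mean ± SD, n = 3) and 48.8 ± 3.66 and 30.7 ± 6.71 in T14-RA, and neither T14 term was called. Aldoa, the muscle form of aldolase, had the highest level per kilobase of the 33 genes at T0, 1195 ± 53.6 CPM per kilobase (SD, n = 3). It measured 1651, 1713 and 1805 CPM at T0, 1925, 1812 and 1833 in T7-RA and 2743, 2972 and 2943 in T14-RA. The T7-RA values lay above those of T0 with no overlap, and the larger part of the rise lay between T7 and T14. The change from T7 to T14 was 0.72 ± 0.0673 on the log2 scale (adjusted p = 7.18e-13), and with RA Aldoa reached 3205, 3523 and 3162 CPM at T14. Tpi1, which interconverts the triose phosphates, was low and uneven, with 8.28, 13.1 and 6.29 CPM at T0 and 31.8, 31.4 and 83.4 in T14+RA, and was not called in any comparison, although its T14 term passed without T7+RA replicate 3 (adjusted p = 4.98e-04).

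Of the 7 genes for the steps from triose phosphate to pyruvate, Eno3, Pgam2 and Pgk1 rose at T14 and Eno1 and Pkm fell, where 8.47% of all genes were called higher and 8.85% lower. Eno3 (ENSRNOG00000004078, band 10q24), the muscle enolase, measured 69.0, 126 and 81.7 CPM at T0, 172, 148 and 160 in T7-RA and 408, 414 and 337 in T14-RA. In RA cultures its level was 107, 111 and 111 CPM at T7 and 172, 203 and 199 at T14, below the cultures without RA at each day with no overlap. The T14 term of Eno3 was 2.01 ± 0.154 on the log2 scale (adjusted p = 1.56e-16), a 4.01-fold rise, and the RA term was -0.83 ± 0.105 (adjusted p = 6.82e-09). Eno3 already rose at T7, by 0.94 ± 0.164 (adjusted p = 1.1e-05), a call that was lost without T0 replicate 1 (adjusted p = 0.00211). Eno1, the enolase of most tissues, measured 1135, 1403 and 1103 CPM at T0 and 759, 809 and 721 in T14-RA. Its T14 term was -0.68 ± 0.0978 (adjusted p = 6.8e-08). Its T7 term, -0.46 ± 0.0975 (adjusted p = 2.52e-04), was lost without T0 replicate 2 or T7-RA replicate 3, at adjusted p up to 0.0107, and with libraries scaled by size only (-0.35, adjusted p = 0.00513). Eno2, the neuronal enolase, had 1 count in all at T0 and uneven values later, such as 8.68, 47.1 and 1.81 CPM in T14+RA, and was not called.

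Pgam2 (ENSRNOG00000013532, band 14q21), the muscle phosphoglycerate mutase whose upstream sequence held the MEF2 letters, was low before day 14, at 17.1 CPM or under in every library. It measured 1.38, 0 and 4.19 CPM at T0, 3.58, 6.72 and 5.81 in T7-RA and 74.5, 88.6 and 72.8 in T14-RA. Under RA it stood at 5.70, 4.03 and 17.1 CPM at T7 and 9.65, 17.3 and 25.4 at T14, so that T14-RA stood above all other groups. T0 held 3 counts in all and T14-RA held 155, a ratio of 45.1 after scaling, with an exact 95% interval of 15.1 to 221 that covers counting error only. Against a floor of 3 counts per T0 library, Pgam2 was at least 14.7-fold higher in T14-RA. The T14 term was called (5.18 on the log2 scale, adjusted p = 7.74e-06), but its size depends on the prior count. T0 replicate 3 held 2 of the 3 counts, and the term was 6.17 without it and 4.71 without T0 replicate 2. Pgam1, the form of most tissues, measured 722 ± 90.9 CPM at T0 and 582 ± 24.3 in T14-RA (SD, n = 3) and was not called for T14 (adjusted p = 0.0488). Pgk1, which makes the first ATP of the pathway, rose from 364, 445 and 354 CPM at T0 to 615, 646 and 601 in T14-RA and 895, 1009 and 899 in T14+RA. Its T14 term was 0.78 ± 0.113 on the log2 scale (adjusted p = 7.04e-08) and its RA term 0.39 ± 0.0794 (adjusted p = 1.3e-04), and the RA call was lost without T14-RA replicate 1 or 3 (adjusted p up to 0.00112). Its change from T7 to T14, 0.41 ± 0.0795 (adjusted p = 7.63e-05), was lost without T7+RA replicate 1 (adjusted p = 0.00118). Pkm, the pyruvate kinase of muscle and dividing cells, was measured as 1 gene, so that its spliced forms were not separated. Pkm fell from 888, 932 and 820 CPM at T0 to 645, 618 and 650 in T14-RA, a T14 term of -0.43 ± 0.098 (adjusted p = 3.77e-04) that was lost without T0 replicate 1 or 2 or any 1 of the T14-RA cultures (adjusted p up to 0.00475) with libraries scaled by size only (-0.32, adjusted p = 0.00756) and with at least 10 counts required in every library (0.00152). How reads that match several places were counted was not given in the sources used here, and genes of this pathway with processed pseudogenes are uncertain to that extent. Whether this bears on the low and uneven counts of Tpi1 was not tested.

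**Figure D2:**
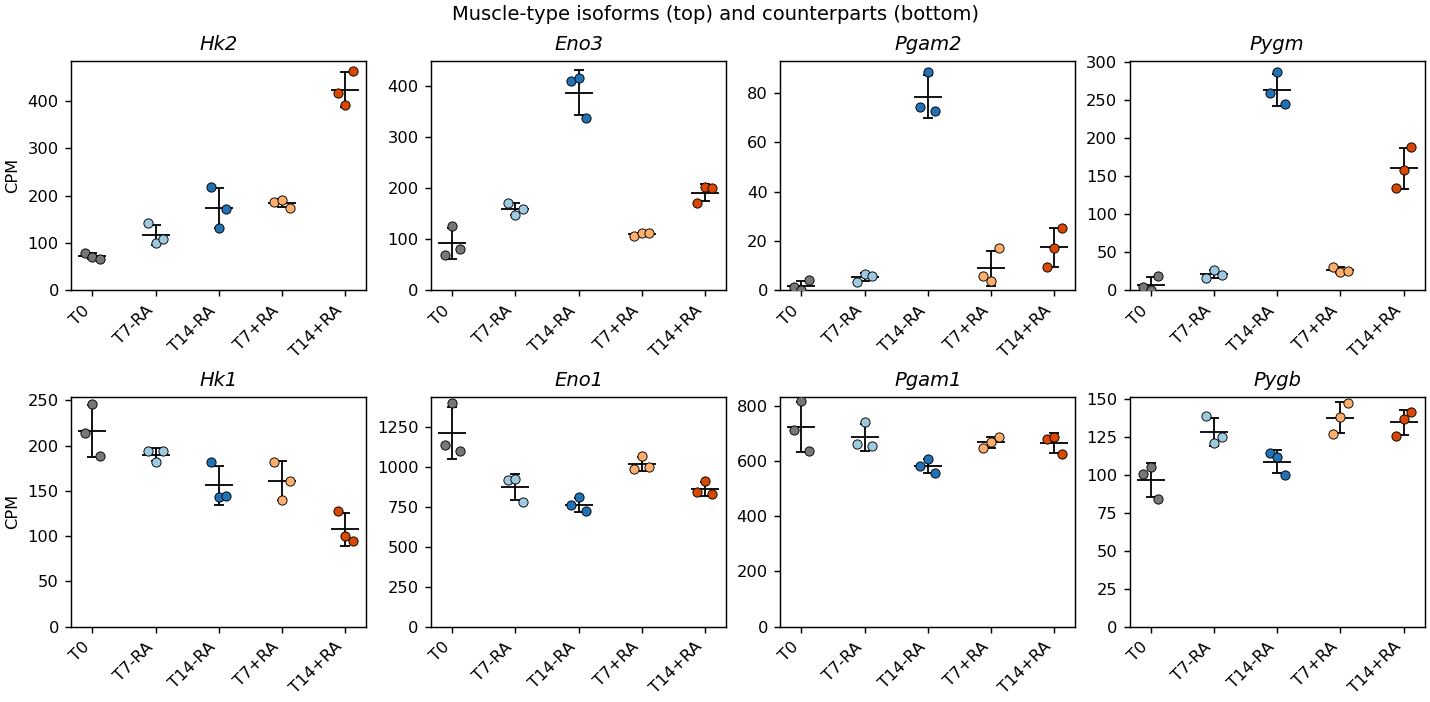
CPM of 4 muscle-type isoforms (top row) and their counterparts (bottom row) in each of the 15 cultures (points), with the mean and SD of each group of 3 (lines); each panel has its own axis from 0. Hk2 is highest in T14+RA at 391 to 464 CPM, whereas Eno3, Pgam2 and Pygm are highest in T14-RA, at 337 to 414, 72.8 to 88.6 and 246 to 287 CPM.

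The switch between isoforms was measured as the log2 ratio of their counts within each library, which does not depend on scaling between libraries. The 12 later cultures, 6 of them with RA, were set against the 3 T0 cultures, and RA against no RA within days, each by an exact two-sided permutation test with p-values adjusted over the 10 tests made. The smallest p was 0.0022 for the first kind of test and 0.005 for the second. Hk2/Hk1 was -1.41, -1.77 and -1.48 at T0, -0.45, -0.84 and -0.83 in T7-RA and 0.27, -0.11 and 0.25 in T14-RA. In the RA cultures it was 0.03, 0.46 and 0.12 at T7 and 1.69, 1.95 and 2.29 at T14. Among cultures without RA, the T7-RA mean of -0.71 and the T14-RA mean of 0.14 both lay above the T0 mean of -1.55. The later cultures, with and without RA, stood 1.95 above T0 (exact p = 0.0044, adjusted p = 0.01), and the RA cultures stood 1.38 above those without RA (exact p = 0.005, adjusted p = 0.01). As a share of the CPM per kilobase of both genes, Hk2 made up 14.4% ± 1.61 at T0, 35.2% ± 3.33 in T14-RA and 66.1% ± 4.66 in T14+RA (SD, n = 3).

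Eno3/Eno1 was also higher in the later cultures than at T0, but with RA it moved the other way from Hk2/Hk1. It was -4.03, -3.47 and -3.74 at T0, -0.89, -0.96 and -1.10 in T14-RA and -2.29, -2.16 and -2.05 in T14+RA. The day 7 values were -2.41, -2.64 and -2.29 without RA against -3.20, -3.26 and -3.16 with it. The ratio was 1.54 higher in the later cultures than at T0 (exact p = 0.0044, adjusted p = 0.01) and fell by 0.97 with RA (exact p = 0.005, adjusted p = 0.01). Eno3 made up 8.5% ± 1.5 of the CPM per kilobase of the 3 enolase genes at T0, 38.3% ± 1.80 in T14-RA and 21.4% ± 1.45 in T14+RA (SD, n = 3). Pfkm/(Pfkl+Pfkp) was 1.23 higher in the later cultures (exact p = 0.0022, adjusted p = 0.01), from 1.18, 0.81 and 0.93 at T0 to 2.43, 2.64 and 2.44 in T14-RA, and the group means of T7-RA, T7+RA and T14+RA were 1.95, 2.37 and 1.99. Its difference with RA was -0.05 (exact p = 0.8), made of 0.42 at day 7 and -0.51 at day 14. Pfkm already made up 64.5% ± 3.07 of the CPM per kilobase of the 3 phosphofructokinase genes at T0. It made up 84.0% ± 1.21 in T14-RA and 78.5% ± 1.63 in T14+RA (SD, n = 3).

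Pgam2/Pgam1 and Pygm/Pygb had few muscle-type counts at T0, and their ratios there spread widely. Pgam2/Pgam1 was -8.42, -9.77 and -6.93 at T0 and -2.96, -2.76 and -2.92 in T14-RA. Day 7 gave -7.31, -6.65 and -6.65 without RA against -6.66, -7.15 and -5.26 with it, and T14+RA gave -6.07, -5.25 and -4.57. Both day 7 groups thus overlapped T0, while the 12 later cultures together stood 3.02 above it (exact p = 0.0154, adjusted p = 0.022). Pgam2 made up 0.562% ± 0.667 of the CPM per kilobase of both genes at T0, 21.2% ± 1.22 in T14-RA and 5.02% ± 2.39 in T14+RA (SD, n = 3). Pgam1 thus held the larger part in every group. Pygm/Pygb was -4.39, -6.82 and -2.09 at T0, 1.18, 1.36 and 1.29 in T14-RA and 0.10, 0.21 and 0.41 in T14+RA. At day 7 it was -3.01, -2.14 and -2.58 without RA and -1.99, -2.48 and -2.48 with RA, so that T0 replicate 3 lay within the day 7 values. The 12 later cultures together stood 3.59 above T0 (exact p = 0.0132, adjusted p = 0.022). With 2 counts added to each gene in place of 0.5, both adjusted p-values became 0.0502, at 2.05 for Pgam2/Pgam1 and 2.77 for Pygm/Pygb. Both were also lost without T0 replicate 1 (adjusted p = 0.0942 for each) or T0 replicate 2 (0.128 and 0.15), as Hk2/Hk1 and Eno3/Eno1 were without any 1 T0 culture (adjusted p up to 0.0879), where fewer splits exist. With RA, Pgam2/Pgam1 differed by -0.95 (exact p = 0.12, adjusted p = 0.15), made of 0.51 at day 7 and -2.42 at day 14. Pygm/Pygb differed by -0.39 (exact p = 0.17, adjusted p = 0.189), made of 0.26 at day 7 and -1.03 at day 14.

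**Figure D3:**
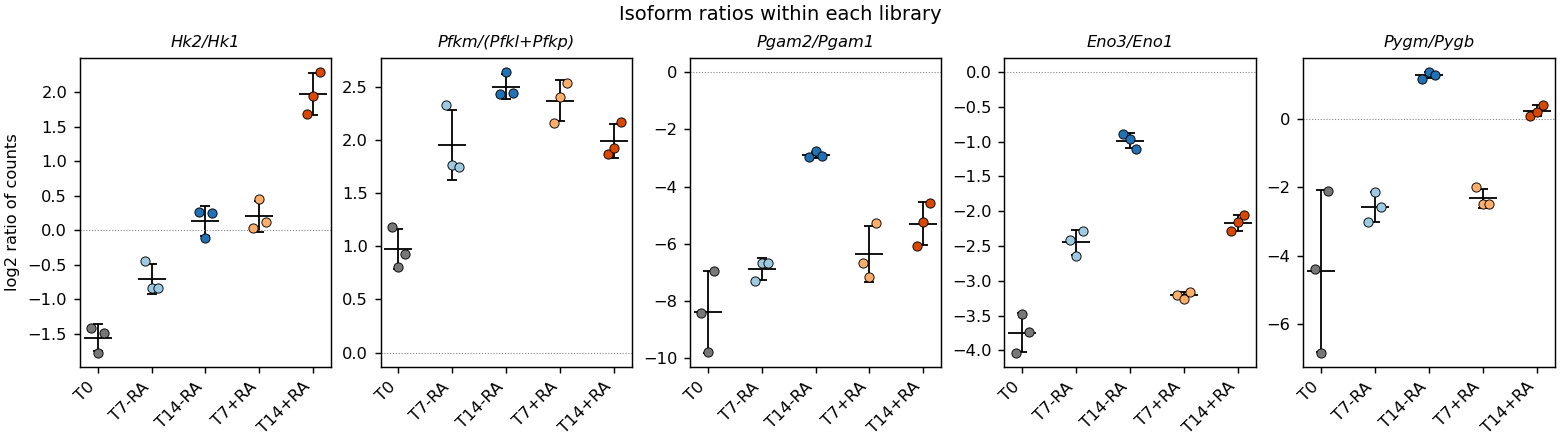
Log2 ratio of the counts of the muscle-type isoform to its counterpart in each library (points), with the mean and SD of each group of 3 (lines); panels have their own axes and the dotted line marks equal counts. Hk2/Hk1 is highest in T14+RA, at 1.69 to 2.29, and the other 4 ratios have their highest group mean in T14-RA.

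The bifunctional enzymes Pfkfb1, Pfkfb2 and Pfkfb3, which make and remove the allosteric activator of phosphofructokinase, were not called in any comparison. Pfkfb3 measured 59.5 ± 5.13 CPM at T0, 60.6 ± 6.70 in T14-RA and 73.7 ± 9.53 in T14+RA (SD, n = 3). Pfkfb2 measured 18.0 ± 3.68 CPM at T0 and 38.0 ± 7.59 in T14+RA, with a T14 term of 0.65 on the log2 scale. Pfkfb1 had 12 counts in all at T0 and 2 in T14+RA, a ratio of 7.69 with an exact 95% interval of 1.71 to 70.8.

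Of the 6 pyruvate dehydrogenase genes, 2 rose at T14 and none fell, where 8.47% of all genes were called higher and 8.85% lower. The RA term called 1 of the 6 higher, Pdk3, a kinase that switches the complex off, where 3.33% of all genes were called higher and 3.07% lower. The T14 terms of Pdk1, Pdk2, Pdk3 and Pdp1 were 0.72, 1.21, 1.34 and 1.29 on the log2 scale and did not pass the threshold (adjusted p = 0.123, 0.00194, 0.00171 and 0.00198). With libraries scaled by size only those of Pdk2, Pdk3 and Pdp1 passed (adjusted p = 7.3e-04, 9.39e-04 and 7.79e-04), as did that of Pdk3 without T14-RA replicate 1 (3.14e-04). Pdhb and Pdha1 encode the subunits of its first enzyme. Pdhb rose from 37.2, 46.9 and 48.2 CPM at T0 to 82.9, 113 and 81.3 in T14-RA, a T14 term of 1.10 ± 0.205 (adjusted p = 1.65e-05) that narrowly missed the threshold without T0 replicate 1 (adjusted p = 0.00101). Pdha1 rose from 163, 159 and 113 CPM to 261, 218 and 254, a T14 term of 0.72 ± 0.135 (adjusted p = 1.68e-05). Pdk3 (ENSRNOG00000012513, band Xq22), a pyruvate dehydrogenase kinase, measured 20.7, 18.8 and 14.7 CPM at T0, 11.9, 30.9 and 33.4 in T7-RA and 32.4, 35.4 and 44.0 in T14-RA. With RA it measured 34.2, 28.2 and 36.0 CPM at T7 and 117, 121 and 147 at T14, so that T14+RA stood apart from every other group. The RA term of Pdk3 was 1.27 ± 0.199 on the log2 scale (adjusted p = 3.78e-06). Pdk2 measured 22.7, 29.6 and 14.5 CPM in T7-RA and 33.6, 31.9 and 37.3 in T14-RA, against 17.1, 9.40 and 15.4 in T7+RA and 44.4, 48.7 and 50.8 in T14+RA. Its rise from T7 to T14, averaged over cultures without and with RA, was 1.15 ± 0.219 (adjusted p = 5.26e-05). Pdk1 measured 15.2 ± 5.79 CPM at T0 and 29.4 ± 7.14 in T14+RA (SD, n = 3) and was not called. Pdp1, the phosphatase that switches the complex on, measured 34.8, 51.4 and 27.1 CPM in T14-RA and 16.4, 22.0 and 14.5 in T14+RA, with an RA term of -0.90 ± 0.235 that did not pass the threshold (adjusted p = 0.00374).

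Of the 9 glycogen genes, 6 rose at T14 and none fell, where 8.47% of all genes were called higher and 8.85% lower. The 6 were Pygm, Gyg1, Gys1, Pgm1, Ugp2 and Phkb, and Phka1, Pygb and Gbe1 were not called. Pygm (ENSRNOG00000021090, band 1q43), the muscle phosphorylase that releases glucose phosphate from glycogen, measured 4.14, 0 and 18.9 CPM at T0, 16.7, 26.9 and 20.3 in T7-RA and 259, 287 and 246 in T14-RA. With RA it measured 31.4, 24.2 and 25.7 CPM at T7 and 134, 159 and 189 at T14. T0 held 12 counts in all, and T14-RA stood 38.0 times higher, with an exact 95% interval of 21.6 to 74.1. The T14 term was 5.12 ± 0.363 on the log2 scale (adjusted p = 1.24e-11), and it was 6.61 without T0 replicate 3, which held 9 of the 12 counts, and 4.62 without T0 replicate 2. Pygb, the brain form, measured 96.5 ± 11.2 CPM at T0 and 109 ± 7.58 in T14-RA (SD, n = 3) and was not called. Pygm made up 10.0% ± 12.8 of the CPM per kilobase of both at T0, 77.8% ± 1.08 in T14-RA and 63.0% ± 2.59 in T14+RA.

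Gyg1, the glycogenin on which a glycogen particle is started, rose with both time and RA. It measured 48.3, 60.04 and 37.7 CPM at T0, 137, 149 and 110 in T14-RA and 190, 233 and 234 in T14+RA. Its T14 term was 1.49 ± 0.182 on the log2 scale (adjusted p = 9.59e-10) and its RA term 0.60 ± 0.111 (adjusted p = 2.68e-05). Gys1, the muscle glycogen synthase, rose at T14 by 0.86 ± 0.182 (adjusted p = 1.19e-04), from 66.2, 69.4 and 71.3 CPM at T0 to 142, 97.4 and 146 in T14-RA. That call was lost without T0 replicate 1 or T14-RA replicate 1 or 3 (adjusted p up to 0.00162). Pgm1 and Ugp2, which turn glucose phosphate into the sugar nucleotide used for synthesis, had T14 terms of 1.49 ± 0.212 (adjusted p = 5.65e-08) and 1.00 ± 0.172 (adjusted p = 3.5e-06). Both also rose at T7, Pgm1 by 1.00 ± 0.219 (adjusted p = 3.63e-04) and Ugp2 by 0.77 ± 0.173 (adjusted p = 5.61e-04). The T7 call of Pgm1 was lost without T0 replicate 1 or 3 or T7-RA replicate 1 (adjusted p up to 0.00873) and with limma-voom (0.00111). That of Ugp2 was lost without any 1 T0 culture, T7-RA replicate 1 or 3 or T7+RA replicate 3 (adjusted p up to 0.00428), with DESeq2 (0.00192) and with limma-voom (0.00136). Phkb, a subunit of the kinase that activates phosphorylase, rose by 0.90 ± 0.212 at T14 (adjusted p = 5.11e-04), which was lost without T0 replicate 2 or 3 or any 1 of the T14-RA cultures (up to 0.00674), with DESeq2 (0.0019) and, narrowly, with limma-voom (0.001). Gbe1, the branching enzyme, measured 26.7 ± 1.71 CPM at T0, 22.8 ± 5.20 in T14-RA and 25.7 ± 3.46 in T14+RA (SD, n = 3) and was not called.

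**Figure D4:**
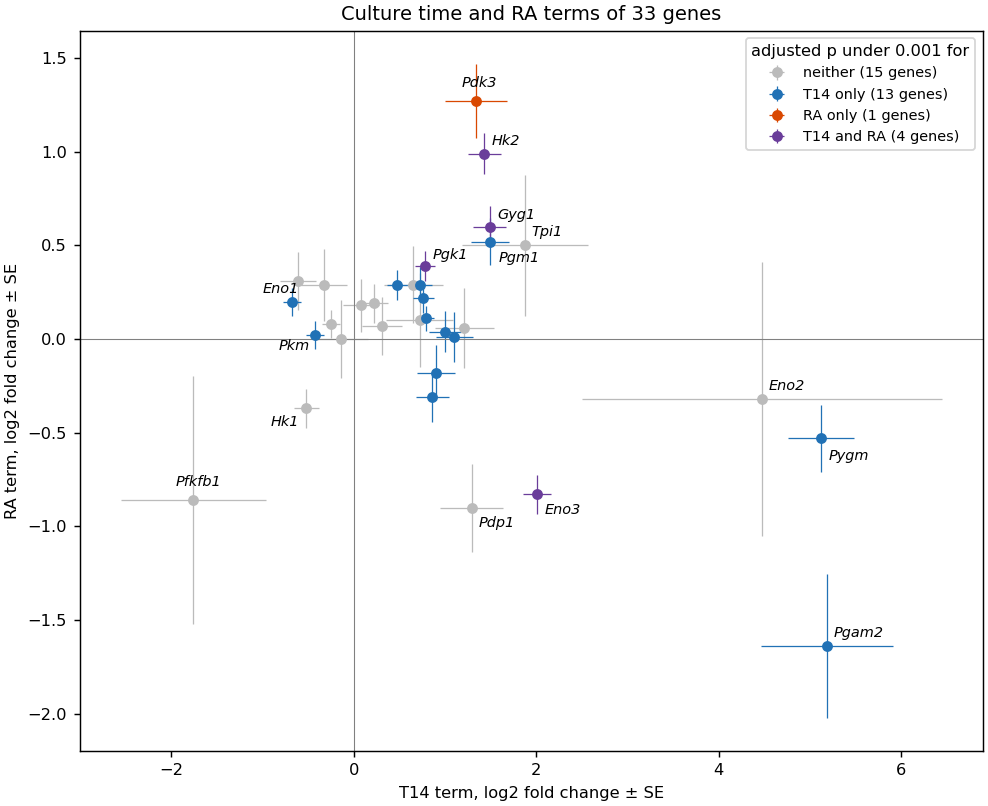
RA term against T14 term for the 33 genes, both as log2 fold change with SE bars, coloured by which term passed an adjusted p under 0.001. Hk2, Gyg1 and Pgk1 lie to the upper right and Eno3 to the lower right among the 4 genes called for both; Eno2, Pfkfb1 and Pgam2 have the widest bars.

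Whether the change with RA differed between the days was asked with a model of 5 group means. At day 7 no gene was called in edgeR, DESeq2 or limma-voom, where 3.17% of all genes were called in edgeR. An unadjusted p under 0.05 was reached by 8 of the 33 genes, and by 17.2% of all genes. The nearest was Hk2, at 0.65 ± 0.147 on the log2 scale (adjusted p = 0.00132), which was called in 7 of the 15 fits that left out 1 library. At day 14, 7 genes were called, where 4.81% of all genes were, 2.46% higher and 2.35% lower. Hk2 (1.25 ± 0.128), Pdk3 (1.78 ± 0.214), Gyg1 (0.71 ± 0.141) and Pgk1 (0.59 ± 0.097) rose. Eno3 (-1.03 ± 0.126), Pgam2 (-2.27 ± 0.299) and Pygm (-0.74 ± 0.155) fell. The adjusted p-values of the 7 genes lay between 4.56e-12 for Hk2 and 3.53e-04 for Pygm. The calls of Gyg1 and Pygm were lost in DESeq2, which called 5 genes (adjusted p = 0.00167 and 0.00267), and in some fits with a library left out. For Gyg1 these fits left out T14-RA replicate 1 or 3 and T14+RA replicate 2 or 3 (adjusted p up to 0.00626), and for Pygm any 1 of the T14-RA cultures and T14+RA replicate 1 or 2 (up to 0.0213). Genes that rose with time therefore moved in both directions with RA at day 14, and the 3 that fell, Eno3, Pgam2 and Pygm, were muscle-type isoforms, as was Hk2, which rose. In the same libraries the summed myoblast and myotube markers were 11739 to 12428 CPM without RA and 5404 to 6180 CPM with it. The part of these markers in the changes was not tested.

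The difference of the RA change between the days was tested as a contrast of its own, with calls at an adjusted p under 0.05. It was called for 2 of the 33 genes, where 0.743% of all genes were called. Pgam2 differed by -2.93 ± 0.661 on the log2 scale (adjusted p = 0.00966), from 0.65 ± 0.568 at day 7. Pdk3 differed by 1.39 ± 0.365 (adjusted p = 0.0461), from 0.39 ± 0.286 at day 7. Both calls were sensitive to single libraries. That of Pgam2 was lost without T7+RA replicate 3, which held 10 of that group's counts (-2.15, adjusted p = 0.431), without T7-RA replicate 1 (-2.69, 0.0562) or without T14+RA replicate 1 (-2.54, 0.0596). That of Pdk3 was lost in 11 of 15 fits, without any 1 of the T14-RA, T7+RA or T14+RA cultures or T7-RA replicate 2 or 3, at adjusted p up to 0.309, and with DESeq2 (adjusted p = 0.0955) and limma-voom (0.133). For the other 5 genes called at day 14 the difference was not called, with Pygm at -1.10 ± 0.364 (adjusted p = 0.212), Hk2 at 0.60 ± 0.197 (0.19) and Eno3 at -0.49 ± 0.198 (0.415).

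**Figure D5:**
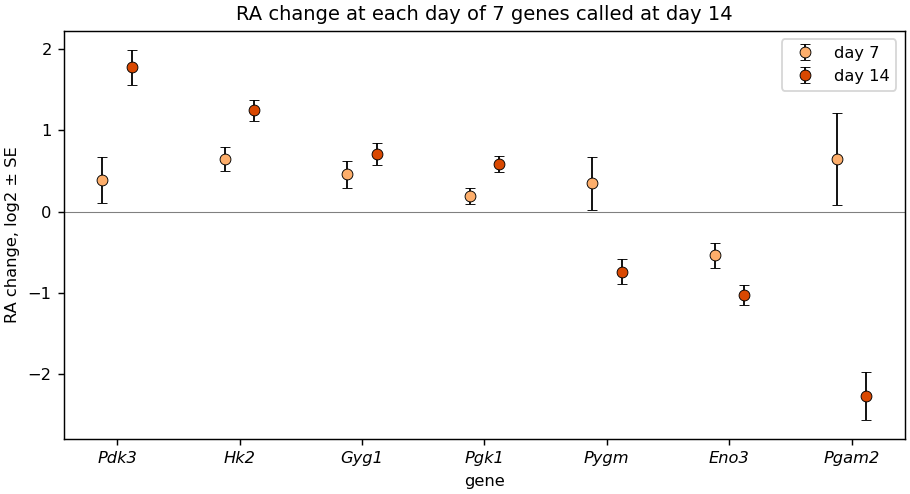
Change with RA at day 7 and day 14, as log2 fold change with SE, for the 7 genes called at day 14. Pdk3, Hk2, Gyg1 and Pgk1 are above 0 at both days and Eno3 below 0 at both, whereas Pygm and Pgam2 pass from 0.35 and 0.65 at day 7 to -0.74 and -2.27 at day 14.

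Other genes of the same pathways were counted from a list of 47, of which 31 were in the table. The T14 term called 9 of them, 8 higher and 1 lower, and the RA term 5, 4 higher and 1 lower, where 17.3% and 6.39% of all genes were called. Ldhb, the lactate dehydrogenase subunit of heart muscle, measured 141, 201 and 157 CPM at T0, 179, 194 and 157 in T7-RA and 223, 218 and 230 in T14-RA. Under RA the level was 525, 541 and 550 CPM at T7 and 1026, 1146 and 963 at T14, above all other libraries. Its RA term was 1.93 ± 0.0945 on the log2 scale (adjusted p = 2.82e-24), a 3.81-fold rise. At day 7 it was the 1 gene of the 31 called for RA (1.61 ± 0.116, adjusted p = 4.46e-18), where 3.17% of all genes were called. Ldha, the subunit of skeletal muscle, rose from T7 to T14 by 0.41 ± 0.083 (adjusted p = 1.34e-04), which was lost without T7+RA replicate 2 (adjusted p = 0.00174), and was not called for RA. Pdk4, a further pyruvate dehydrogenase kinase, had counts of 21, 15 and 11 in T14+RA and none in the other 12 libraries. At 21.3 ± 2.01 CPM (SD, n = 3) it was at least 4.56-fold higher than in T14-RA, against a floor of 3 counts per library.

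Stbd1, which ties glycogen to membranes, and Gaa, the lysosomal enzyme that digests glycogen, rose with both time and RA. Stbd1 had a T14 term of 1.38 ± 0.206 and an RA term of 0.65 ± 0.122 on the log2 scale (adjusted p = 1.7e-07 and 3.92e-05). Gaa had a T14 term of 0.48 ± 0.112 and an RA term of 0.50 ± 0.0791 (adjusted p = 4.2e-04 and 1.5e-06), and the T14 call was lost without T0 replicate 2 or 3 or T14-RA replicate 2 (adjusted p up to 0.00277). Ppp1r3c, which targets a phosphatase to glycogen, measured 2.76, 5.63 and 0 CPM at T0, 17.9, 16.1 and 24.7 in T7-RA and 27.6, 37.2 and 30.5 in T14-RA. It was at least 5.94-fold higher in T14-RA than the floor of 3 counts per T0 library. In the RA groups it measured 2.85, 8.05 and 3.43 CPM at T7 and 8.68, 23.6 and 12.7 at T14, an RA term of -1.41 ± 0.287 (adjusted p = 1.51e-04) that was lost without T14+RA replicate 1 (adjusted p = 0.00278). Bpgm, Dld and the lactate carrier Slc16a1 rose at T14 with log2 changes of 2.08, 0.93 and 1.51. Pgm5, a relative of phosphoglucomutase without its activity, fell by 1.03 ± 0.133 (adjusted p = 4.79e-09). Slc2a4, the insulin-responsive glucose carrier, measured 29.0 ± 7.65 CPM in T7-RA and 34.9 ± 8.14 in T14-RA, against 18.6 ± 4.90 in T7+RA and 65.3 ± 4.77 in T14+RA (SD, n = 3). Its rise from T7 to T14, an average over unlike changes without and with RA, was called (1.03 ± 0.217, adjusted p = 3.41e-04). That call was lost with DESeq2 (adjusted p = 0.00124) and limma-voom (0.00402), and without T7-RA replicate 2, T14-RA replicate 3 or any 1 of the 6 RA cultures (adjusted p up to 0.0038).

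The order of levels among the 33 genes, compared per kilobase of the transcript size given with the counts, was led by Aldoa at T0, in T14-RA and in T14+RA. At T0 Aldoa was followed by Eno1 at 682 ± 92.8, Pkm at 446 ± 28.8, Pgam1 at 414 ± 52.2 and Pgk1 at 229 ± 29.3 CPM per kilobase (SD, n = 3). Pkm and Pgam1 did not differ beyond their spread. In T14+RA Aldoa stood at 2286 ± 137, and Pgk1, at 552 ± 38.1, was next, above Eno1 at 484 ± 24.9 CPM per kilobase. Eno2, Pgam2 and Pygm were the lowest at T0, at 0.312 ± 0.540, 2.13 ± 2.45 and 2.66 ± 3.44 CPM per kilobase, and did not differ beyond their spread.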

How the data were processed

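RNA of 15 cultures of the rat line H9c2, 3 in each of 5 groups, was sequenced as stranded, paired-end messenger RNA libraries. The authors trimmed the reads, mapped them with HISAT2, counted them per gene with featureCounts and deposited raw counts that were not normalized, keeping genes whose sum over the 15 libraries was above 20. Build Rnor_6.0 is named in the submitters' processing notes, and the annotation release, tool versions and strand setting are not given in the sources used here. The lowest sum among the 11574 genes was 21. The study describes the replicates as biological, and how the cultures of a group were kept apart is not given in the sources used here.

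Groups and replicate numbers came from the labels. The 40 genes and the other lists were chosen with earlier results of these data known, and any listed gene could be named. A result for 1 listed gene is not reported here. All 11574 genes were fitted in edgeR 4.0.16 (R 4.3.3; TMM, robust quasi-likelihood F test, common dispersion 0.00962), with T7, T14 and RA terms after the formula of the study, and with 5 group means. P-values were adjusted over all genes (Benjamini-Hochberg). Calls were made at an adjusted p under 0.001, or 0.05 for the difference between days. Standard errors are the log2 change divided by the root of F. Ratios of isoform counts had 0.5 added to each gene and were tested by exact permutation (SciPy 1.17.1). Of 12 ratio tests planned 10 were made, because Aldoc and Pygl were not analysed here, and Pygm was set against Pygb alone. A group with at most 3 counts in every library was treated as at the floor. Intervals and floors cover counting error only.

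No 2 replicate libraries agreed within sampling noise (lowest chi-square per gene 1.07, p = 2.34e-07). Level per kilobase used the transcript size deposited with the counts, read as that of the longest transcript. Alternatives were scaling by library size only or by relative log expression, 2 filters on low counts, DESeq2 1.42.0, limma-voom (limma 3.58.1), a replicate block, another threshold, other prior counts and each library left out.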

Additional observations from a re-analysis of the deposited data

Results flagged for a closer look

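The change with RA differed between day 7 and day 14, by a test of the difference itself, for 4 genes, 2 of the 33 and 2 of the 31 other pathway genes, where 0.743% of all genes were called. Pgam2, the muscle phosphoglycerate mutase, had a change with RA that was lower at day 14 than at day 7, a difference of -2.93 on the log2 scale (edgeR adjusted p = 0.00966). That call was lost without T7+RA replicate 3 (-2.15, adjusted p = 0.431), T7-RA replicate 1 (0.0562) or T14+RA replicate 1 (0.0596), and for this difference DESeq2 called none of the 33 genes, with 10 adjusted p-values missing, and limma-voom called 1. Pdk3, a pyruvate dehydrogenase kinase, had a change that was higher at day 14 by 1.39 (adjusted p = 0.0461), a call lost with DESeq2 (0.0955), with limma-voom (0.133) and in 11 of the 15 fits that left out 1 library.

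Of the other genes of these pathways, Ldhb, the heart subunit of lactate dehydrogenase, had a change with RA that was higher at day 14 by 0.62 (adjusted p = 0.0442), from 1.61 ± 0.116 at day 7 to 2.22 ± 0.111 at day 14 (SE). Slc2a4, the insulin-responsive glucose carrier, had a change that was higher at day 14 by 1.53 (adjusted p = 0.0391), with 24.2, 16.1 and 15.4 CPM in T7+RA against 33.4, 20.2 and 33.4 in T7-RA. Leaving out 1 library lost the call of Ldhb in 10 of 15 fits (adjusted p up to 0.245), namely without T7-RA replicate 1 or 2, T14+RA replicate 1 or 2, or any 1 of the T14-RA or T7+RA cultures, and DESeq2 did not call it (0.053). Leaving out 1 library lost that of Slc2a4 in 9 of 15 (up to 0.197), namely without T7-RA replicate 1 or 3, T14-RA replicate 1 or 2, T7+RA replicate 2 or 3, or any 1 of the T14+RA cultures.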

How the results depend on the processing

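At an adjusted p under 0.05 the calls among the 33 genes numbered 13 for T7, 24 for T14, 19 from T7 to T14, 12 for RA, 4 for RA at day 7 and 11 at day 14. Of all genes 23.1%, 35.4%, 16.2%, 14.7%, 7.41% and 11.2% were then called, in the same order. At 0.001 the difference between days had 0. With at least 10 counts in every library, 23 of the 33 genes were tested, so fewer could be called: 4 for RA at day 14 and 0 for the difference between days. DESeq2 called 0 for that difference, with 10 of the 33 adjusted p-values missing, and limma-voom 1; limma-voom called 2 for T7, and the causes were not tested. With 1 library left out, calls ranged from 1 to 5 for T7, 13 to 18 for T14, 9 to 12 from T7 to T14, 4 to 6 for RA, 0 to 1 for RA at day 7, 5 to 8 at day 14 and 0 to 2 for the difference. The T7 count was lowest, at 1, without T0 replicate 1, and was 2 without T0 replicate 2 or T7-RA replicate 1. The count for the difference was 0 without T7+RA replicate 3 or T14+RA replicate 1.

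For the isoform ratios, later against T0, the differences with 1 library left out were 1.78 to 2.07 for Hk2/Hk1, 1.15 to 1.33 for Pfkm/(Pfkl+Pfkp), 2.33 to 3.75 for Pgam2/Pgam1, 1.4 to 1.68 for Eno3/Eno1 and 2.4 to 4.76 for Pygm/Pygb. With 2 counts added they were 2.05 for Pgam2/Pgam1 and 2.77 for Pygm/Pygb (adjusted p = 0.0502 for both, by exact permutation). With RA, Pfkm/(Pfkl+Pfkp) ranged from -0.1 to 0.05, changing sign without T7-RA replicate 1 (0.05) or T7+RA replicate 1 (0.0). Ratios with no prior count could not be formed for Pgam2/Pgam1 and Pygm/Pygb, which hold a count of 0.

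Of 81 single values of the 33 genes, the 1756 alternative values kept direction and side of the threshold in 1661 cases, lost a call in 70 and gained one in 23. The sign changed in 2 uncalled values, Gbe1 at T14 (-0.21 to 0.02, above 0 without T14-RA replicate 1) and Pgam2 for RA at day 7 (-0.12 to 1.02, below 0 without T7+RA replicate 3). For the other pathway genes, 575 of 628 kept both and 53 lost a call; DESeq2 did not call Pdk4 for RA (adjusted p = 0.67). Scaling by library size only moved the median of all genes to 0.15 at T14 and 0.13 at T7, from 0.05 and 0.02, and the calls of all genes at T14 from 980 higher and 1024 lower to 1221 and 844. Under it 19 of the 33 genes were called at T14, and Eno1 at T7 and Pkm at T14 were lost. The replicate numbers did not pair the cultures: over 30 same-number pairs the correlation of deviations averaged 0.018 (-0.035 to 0.099), and 6 of 15 libraries correlated best with their own number. With the replicate block the T14 term of Hk1 (-0.53, adjusted p = 8.5e-04) and the RA term of Pgm1 (0.52, 9.47e-04) were also called. The counts were then 5 for T7, 18 for T14, 11 from T7 to T14, 6 for RA, 1 for RA at day 7 (Hk2), 8 at day 14 and 2 for the difference. Of all 11574 genes the block called 1083, 2088, 853, 797, 429, 628 and 118, in the same order. Depth limits what can be said of genes with few counts, such as Eno2, Pgam2, Pfkfb1 and Pygm, which had 1, 3, 12 and 12 counts in all at T0.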
